A study of Rattus norvegicus with 35 samples.

Results

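The nuclear genes that encode the subunits of the mitochondrial oxidative phosphorylation complexes were followed in the rat retina after 2 lesions of the optic nerve. A gene was a member when its symbol in the platform annotation matched the Nduf subunit series, Sdha to Sdhd, the Uqcr series, Cox4 to Cox8 or Atp5, and when its probe set carried that symbol alone. This gave 79 members among the 14217 genes with a symbol of their own: 35 of complex I, 4 of complex II, 7 of complex III, 17 of complex IV and 16 of complex V. Of these, 72 had a mean log2 signal above 4 over the 35 arrays, against 9383 of all genes, and the other 7 lay near the floor of the arrays. Where several probe sets carried the same symbol, the one with the highest mean over all arrays stood for the gene. The rule went by symbol, so 3 members, such as Cox7a2l, name no stable subunit, and Cox6c-ps1 carries a pseudogene symbol.

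Oxidative phosphorylation takes electrons from NADH (complex I, NADH dehydrogenase) and from succinate (complex II, succinate dehydrogenase), passes them through complex III (the cytochrome bc1 complex) to oxygen at complex IV (cytochrome c oxidase), and uses the resulting proton gradient to make ATP at complex V (ATP synthase). Most subunits are encoded in the nucleus, and their genes are often transcribed together under nuclear respiratory factors and the coactivator PGC-1alpha. In the retina the photoreceptors, whose inner segments are packed with mitochondria, use much of this capacity, and the unmyelinated stretch of retinal ganglion cell axon is also rich in mitochondria. Defects of complex I are known to injure the ganglion cells first, as in Leber hereditary optic neuropathy.

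All retinas were left retinas of adult female Sprague-Dawley rats, and each array was hybridised with RNA pooled from 4 retinas of different animals. Naive retinas were uninjured (5 arrays, NAIVE A to E). In the intraorbital nerve transection groups (IONT, labelled AXO) the optic nerve was cut close to the eye with the retinal blood supply spared, and retinas were taken at 12 h, 48 h and 7 d (3 arrays each) and at 24 h, 3 d and 15 d (2 arrays each). In the intraorbital nerve crush groups (IONC, labelled CRUSH) the nerve was crushed farther from the eye, and retinas were taken at the same times up to 7 d (3 arrays each). The arrays used whole retina, so fewer cells of a type and less RNA per cell cannot be told apart. A pool has no animal-level spread, and p-values measure the spread between pools.

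The arrays fell into 2 sets. The difference between the 3′ and 5′ probe sets of beta-actin, a measure of how far the labelled RNA reaches, lay at 1.53 to 1.93 on the log2 scale in 27 arrays and at 2.61 to 3.65 in 8 arrays (NAIVE D and E and IONT 24 h, 3 d and 15 d). IONT 24 h, 3 d and 15 d were compared with naive D and E, and all other groups with naive A-C. These references were fixed in advance by the rule of this report, and the ratio divides the arrays in the same way. The second IONC 12 h array stood apart from every other array: the SD of its log2 signals was 2.30 against 2.89 to 3.03, and its median correlation with the others was 0.871 against 0.962 to 0.992. Many of the results that rest on it, directly or through the pooled spread, are given with and without it. Rod markers such as Gnat1 (mean log2 signal 13.88) and Sag (14.95) were high on all arrays. Pou4f1, a defining ganglion cell marker, was near the floor (mean 3.04), while Nefl (10.55) and Sncg (10.44) were well above it.

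The sequence upstream of the start site is shown for 5 members, to show the motifs searched, beside Ndufs1, the member called lower. Promoter windows from RefSeq on rat build GRCr8, holding 250 bases before and 50 bases after the start, were matched for 71 of the 79 members. The core of the NRF-1 site, CGCATGCG, was found on either strand in 6 of the 71 (8.45%), against 1.66% of all 33469 promoters of the table and 3.02% of the 11701 promoters of genes on the array. The core of the ETS site bound by NRF-2 (GABP), CCGGAAG or its reverse complement CTTCCGG, was found in 20 of the 71 (28.2%), against 8.75% and 14.9%. At least 1 of the cores was present in 23 members, both in 3. These are letter matches and were not tested for binding. The 120 bases before the start are printed below, 5′ to 3′ on the strand of the gene, with a core in capitals. Ndufa11 holds 2 overlapping NRF-1 cores, Atp5me holds both cores, Cox8a and Uqcrq hold the ETS core, and Ndufs1 holds neither in these 120 bases, although its 300-base window holds 1 ETS core.
Ndufa11, chr9:1637494-1637613, plus strand: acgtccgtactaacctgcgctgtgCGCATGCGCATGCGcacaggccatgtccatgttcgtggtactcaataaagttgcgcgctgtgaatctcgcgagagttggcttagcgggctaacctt
Atp5me, chr14:1464740-1464859, plus strand: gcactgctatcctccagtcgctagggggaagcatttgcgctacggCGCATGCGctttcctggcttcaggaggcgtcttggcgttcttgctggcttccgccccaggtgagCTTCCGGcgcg
Cox8a, chr1:213833624-213833743, minus strand: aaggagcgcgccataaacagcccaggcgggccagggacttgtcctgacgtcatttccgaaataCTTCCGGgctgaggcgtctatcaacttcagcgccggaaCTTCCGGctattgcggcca
Uqcrq, chr10:38089979-38090098, minus strand: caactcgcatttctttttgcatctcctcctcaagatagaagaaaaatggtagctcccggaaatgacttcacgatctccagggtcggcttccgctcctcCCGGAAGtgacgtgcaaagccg
Ndufs1, chr9:72073606-72073725, minus strand: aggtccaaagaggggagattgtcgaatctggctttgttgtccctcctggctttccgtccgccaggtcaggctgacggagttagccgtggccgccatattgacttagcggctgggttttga

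Almost none of the oxidative phosphorylation genes passed the test after either lesion. Across the 79 members and the 11 comparisons with naive retinas, 2 of 869 values were called by limma (at least 1.2-fold, with an adjusted p under 0.01 by Benjamini-Hochberg and a positive B, the log odds of a change), against 1.56% of the 156387 values of all genes. Ndufs1 fell at IONC 12 h. Cox6a2 rose at IONT 3 d, with both its levels under the log2 value of 4 used as the floor. An unadjusted p under 0.05 was reached by 79 of the 869 values, and by 14.2% of the values of all genes (8.22% to 46.4% per comparison, the highest at IONC 12 h). The largest absolute log2 change among the 72 members with signal above 4 was 0.82. Per comparison, the share of all genes called after IONT was 1.29%, 0.499%, 2.64%, 0.795%, 1.2% and 1.81% in order of time. The corresponding shares after IONC were 5.22%, 1.04%, 1.54%, 0.394% and 0.689%. A missed threshold does not show equal levels, but the 95% interval of the change lay wholly within 1.5-fold of no change for 41 (IONT 3 d) to 66 (IONC 3 d) of the 72 members.

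**Figure D1:**
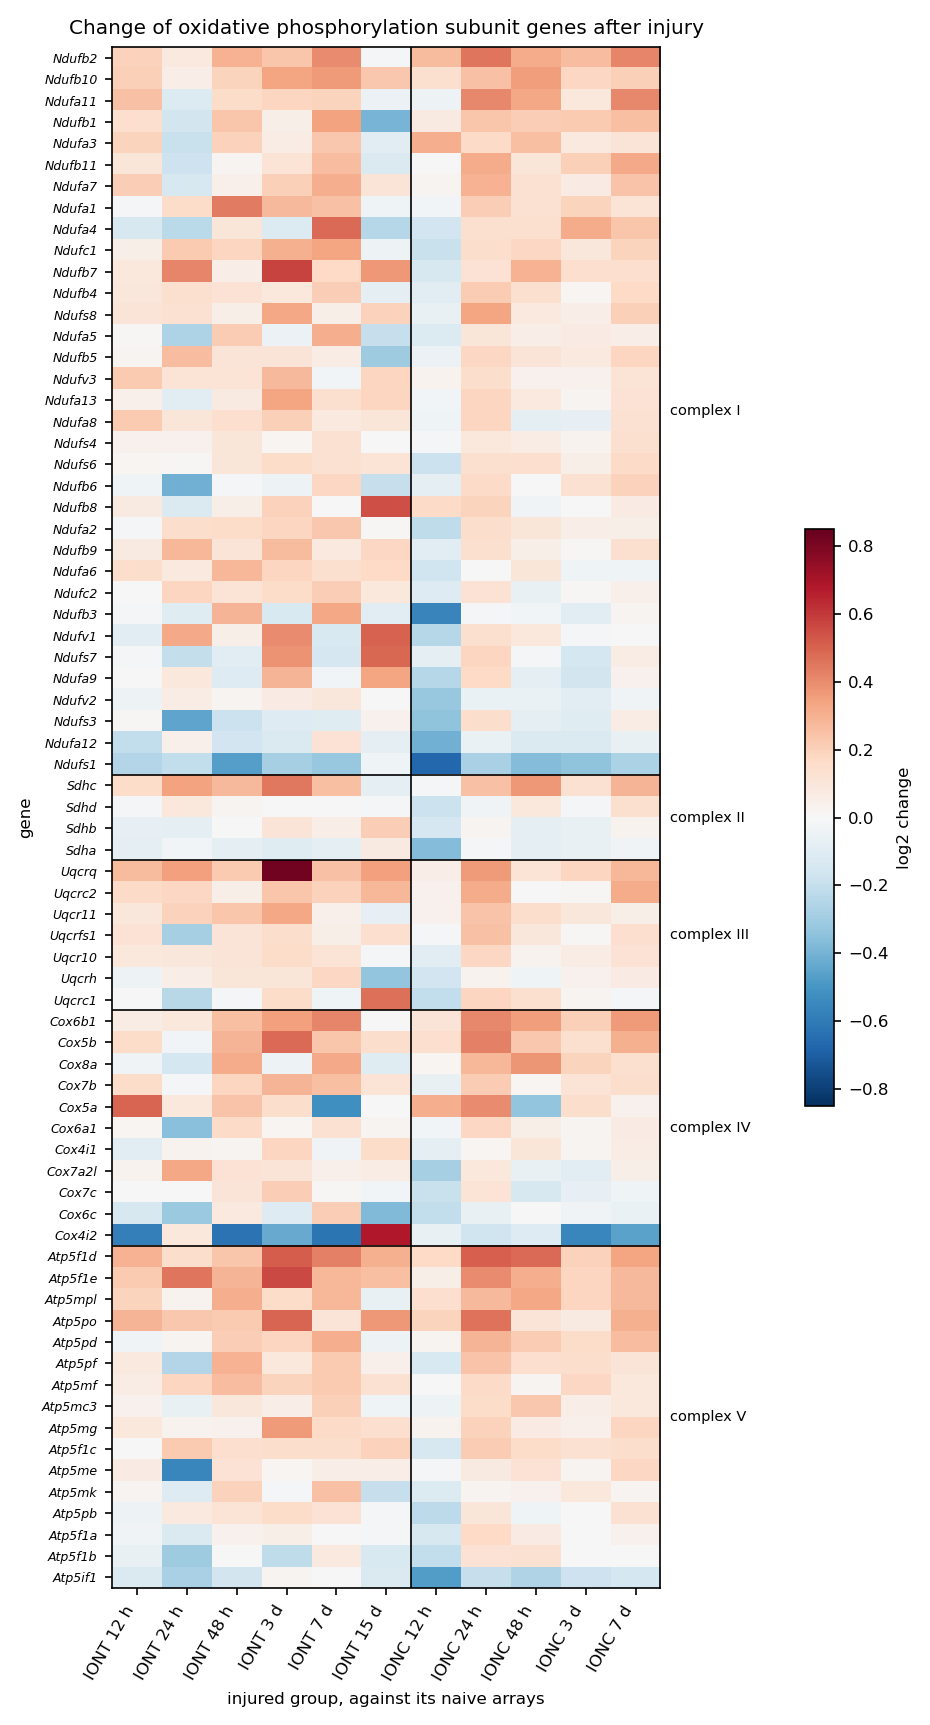
Log2 change of each of the 72 members with a mean log2 signal above 4 (rows, grouped by complex and ordered by their mean change over the 8 comparisons with naive A-C) in the 11 injured groups against their naive arrays (columns), red for higher and blue for lower. Most cells are pale, Ndufs1 at the foot of complex I is blue in all columns except IONT 15 d, where it is near white (-0.03), and most strongly at IONC 12 h (-0.67), and Uqcrq at IONT 3 d is the darkest red cell (0.82).

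Ndufs1 encodes the large iron-sulphur subunit of complex I that receives electrons in its NADH-oxidising arm. On naive A-C its log2 signals were 10.57, 10.64 and 10.52. At IONC 12 h they were 10.17, 9.37 and 10.18, with the outlying value on the array that stood apart. Every IONC 12 h array thus lay below every naive array. The fitted change was -0.67 (SE 0.14, adjusted p = 0.00304, limma), and -0.40 (SE 0.09, adjusted p = 0.00608) without that array. The call ended when any 1 of the 3 naive A-C arrays was left out (adjusted p 0.0102 to 0.0189) and under cyclic loess between arrays, where the change was -0.24. Under that normalisation the members called at IONC 12 h were Atp5pd (0.37), Cox6b1 (0.50) and Ndufb2 (0.66), all higher, named here after their values were seen.

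The other injured groups of the same set lay on the same side. At 24 h after IONC the arrays read 10.41, 10.30 and 10.20, at 48 h 10.15, 10.21 and 10.26, at 3 d 10.29, 10.31 and 10.09, and at 7 d 10.37, 10.23 and 10.33. After IONT they read 10.27, 10.46 and 10.26 at 12 h, 10.12, 10.02 and 10.19 at 48 h, and 10.12, 10.26 and 10.38 at 7 d. All 24 injured arrays were below the lowest naive array, and Ndufs1 was the only one of the 72 members for which this held, as it did for 311 of the 9383 genes with signal above 4 (3.31%). The 8 comparisons share the 3 naive arrays and are not independent. The fitted changes outside IONC 12 h ran from -0.25 (IONT 12 h) to -0.47 (IONT 48 h) and were not called. Without the outlying array, Ndufs1 passed at IONT 48 h (-0.47, adjusted p = 0.000463) and IONC 48 h (-0.37, adjusted p = 0.00461). In the other array set naive D and E read 10.80 and 10.61, IONT 24 h 10.53 and 10.46, IONT 3 d 10.35 and 10.50, and IONT 15 d 10.53 and 10.81. IONT 15 d overlapped its naive arrays (-0.03, SE 0.17), whereas 24 h and 3 d did not (-0.21 and -0.28, neither called).

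**Figure D2:**
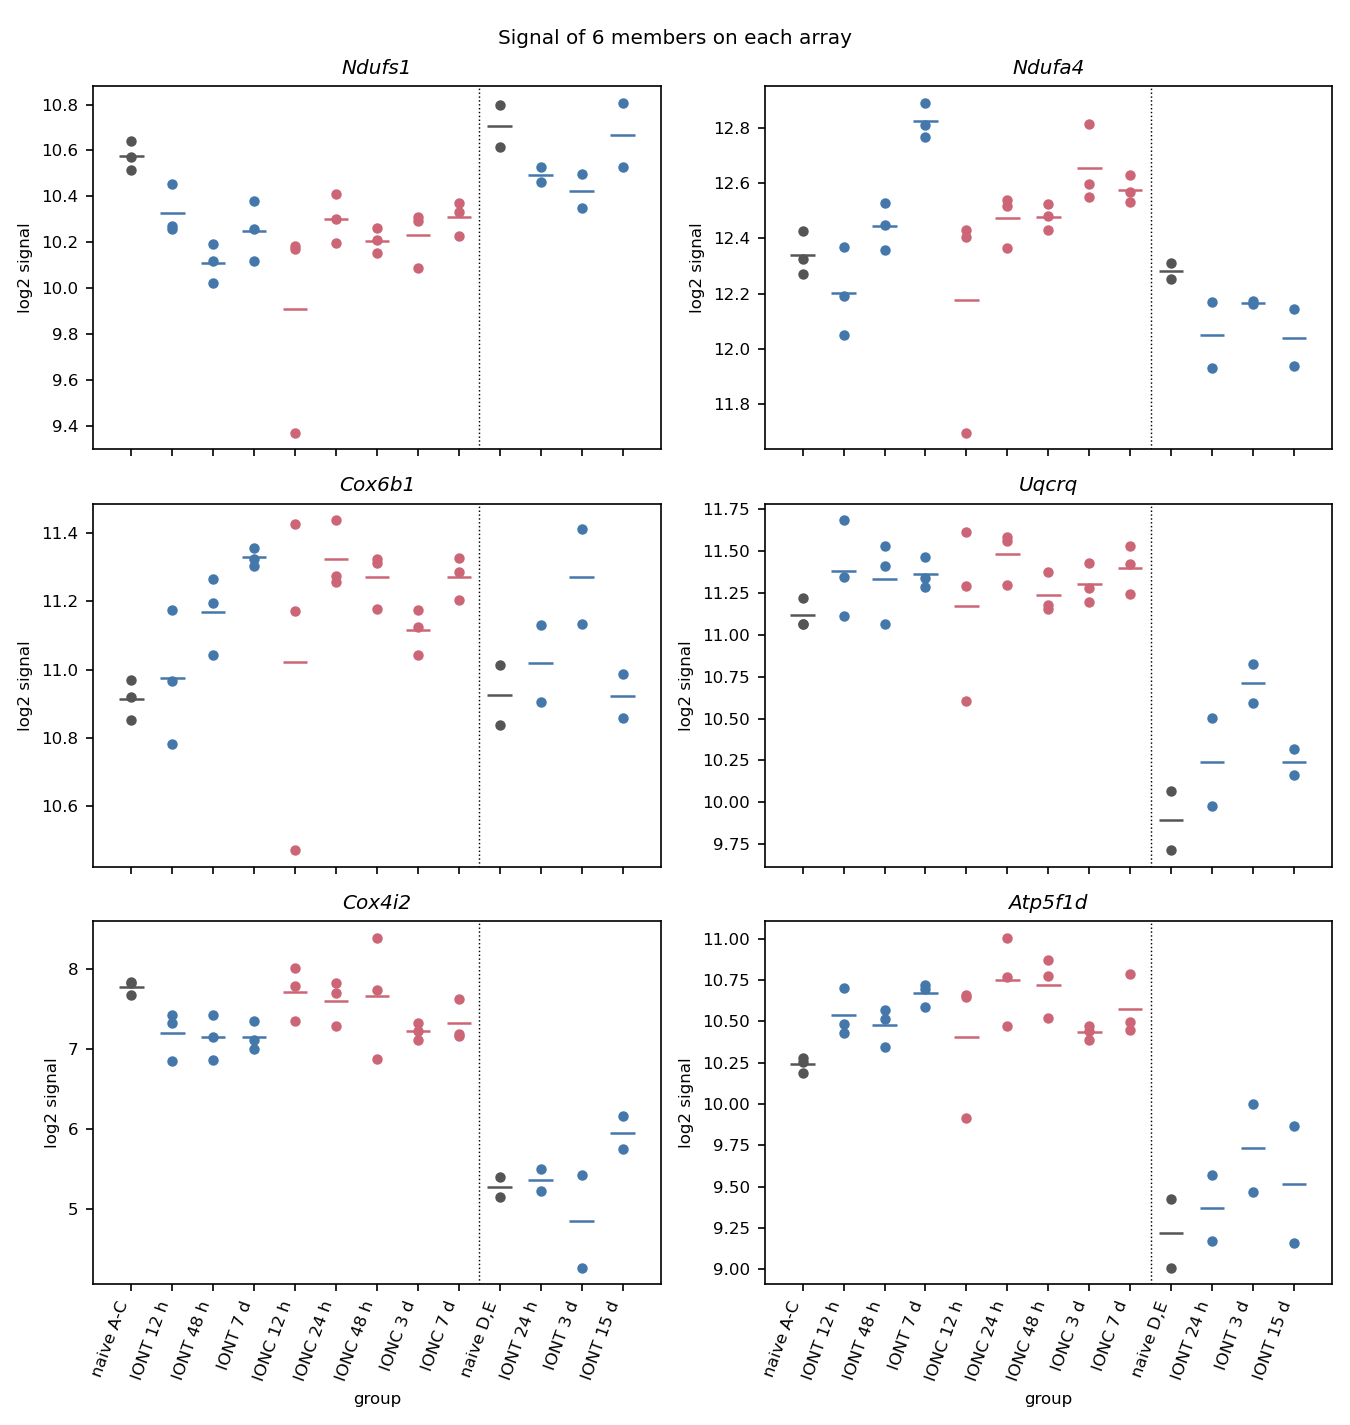
Log2 signal (vertical axes, each panel with its own scale) of 6 members on each array, one point per array and a bar at the group mean, with naive arrays in grey, IONT in blue and IONC in red; the dotted line separates the arrays compared with naive A-C from those compared with naive D and E. Ndufs1 lies below its 3 naive arrays in all 24 injured arrays left of the line, whereas Cox4i2, Uqcrq and Atp5f1d differ more between the naive arrays of the 2 sets than between naive and injured arrays.

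The median changes of the members were small. The median log2 change of the 72 members after IONT, from 12 h to 15 d in order, was 0.04, 0.03, 0.11, 0.15, 0.14 and 0.02. After IONC, from 12 h to 7 d, it was -0.07, 0.17, 0.09, 0.04 and 0.12. The highest of these corresponds to a level 12.4% above naive. The medians of all 9383 genes were -0.01, 0.06, -0.03, 0.07, -0.08 and 0.15 after IONT and -0.38, -0.02, -0.00, -0.07 and -0.03 after IONC in the same order. The negative IONC 12 h median came from 1 array: without it the members stood at 0.17 and all genes at 0.01. With all arrays it was 0.07 against all 5 naive arrays and 0.33 under cyclic loess, so its sign is not settled. At IONT 15 d the members lay below the median of all genes. Centring each array on its median set IONT 3 d at 0.01 and IONT 15 d at -0.20.

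**Figure D3:**
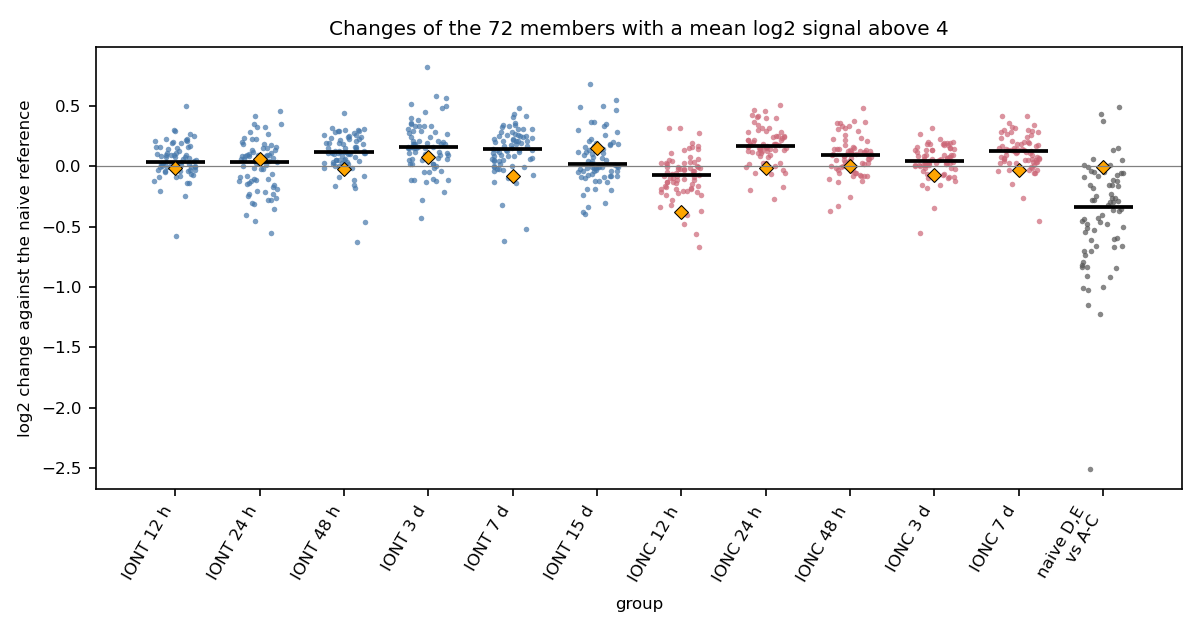
Log2 change of the 72 members (points, shifted sideways at random) against the naive reference, with black bars at their median and diamonds at the median of all 9383 genes with signal above 4; the last column sets naive D and E against naive A-C. In the 11 injured groups the members' medians lie between -0.07 and 0.17, and in the comparison of the naive sets the median is -0.34.

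The members were also set against naive array by array. After IONC 24 h, 45 of the 72 members had every injured array above every naive array, where 20.3% of all genes did. The same was true of 36 members at IONC 7 d (18% of all genes), 25 at 48 h (20%) and 10 at 3 d (12.2%). At IONC 12 h it held for 2 members (5.6%), and for 52 without the outlying array (30%). After IONT the counts, from 12 h to 15 d, were 10 (18.1%), 19 (33.6%), 32 (22.1%), 37 (30.5%), 42 (16.8%) and 20 (42.1%). The share of members above naive exceeded that of all genes at 48 h, 3 d and 7 d after IONT and from 24 h to 7 d after IONC, although by little at IONC 3 d. It was under that of all genes at the other IONT times and, with all its arrays, at IONC 12 h. Below every naive array after IONT lay 5 (19.5% of all genes), 12 (22.6%), 5 (26.3%), 7 (18.3%), 5 (31.5%) and 8 (16.4%) members, from 12 h to 15 d. After IONC these were 3 (24.8%), 2 (23.4%), 5 (21.4%), 3 (25.6%) and 2 (23%), with 3 again at 12 h without the outlying array (26.5%). In each of the 11 comparisons the members' share below naive was under that of all genes. No test was made of these shares, since members of a complex are not independent and the groups share naive arrays.

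Within complex I, which has 7 conserved core subunits encoded in the nucleus and many accessory ones, 6 core subunits and 28 accessory subunits lay above the floor. Core medians over the 8 comparisons with naive A-C ran from -0.28 to 0.14, and accessory medians from -0.06 to 0.20. Leaving out the outlying array narrowed these ranges to -0.12 to 0.14 and 0.06 to 0.20. Against naive D and E the core medians were -0.07, 0.20 and 0.12 and the accessory medians 0.05, 0.18 and -0.01 at IONT 24 h, 3 d and 15 d, so the order was not the same in the 2 array sets, and the difference was not tested. Ndufb2, an accessory subunit of the membrane arm, had the highest mean change of the complex (0.33). It read 10.99, 11.07 and 11.11 on naive A-C, and 23 of the 24 injured arrays of that set lay above all of these. Its values at IONC 24 h were 11.26, 11.55 and 11.73 (change 0.46, SE 0.14, adjusted p = 0.12), so it did not pass. Ndufa4, first named as a complex I protein and now placed with complex IV, had the highest signal of its symbol series. It read 12.32, 12.27 and 12.43 on naive A-C and 12.77, 12.89 and 12.81 at IONT 7 d, with no overlap (0.48, SE 0.13, adjusted p = 0.0537). In the D,E set it lay the other way, from -0.11 to -0.24.

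Complex II, the only one without mitochondrially encoded subunits, had medians of -0.17 to 0.08 over the 8 comparisons of the A-C set, and of -0.04 to 0.12 without the outlying array. Sdhb, the iron-sulphur subunit and brightest of the complex, had changes of -0.15 to 0.21 in the 11 comparisons. Sdha, the flavoprotein that oxidises succinate, had changes of -0.37 to 0.08, the lowest at IONC 12 h, where the outlying array read 10.18 beside 11.09 and 11.07 (-0.07 without it). Sdhc, a membrane anchor, read 10.16, 10.14 and 10.28 on naive A-C and 10.73, 10.57 and 10.38 at IONC 48 h (0.37, SE 0.23, adjusted p = 0.64).

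All 7 complex III members had positive changes at IONT 3 d, IONC 24 h and IONC 3 d, with medians of 0.16, 0.24 and 0.03. Of all genes with signal above the floor, 58.7%, 47.3% and 38.4% had positive changes there. In the other comparisons the count ran from 3 (IONC 12 h, with all arrays) to 6 of the 7. Uqcrq, a small subunit next to cytochrome b, read 9.71 and 10.07 on naive D and E and 10.60 and 10.83 at IONT 3 d. The groups did not overlap, and the change of 0.82 (SE 0.23, adjusted p = 0.07) was the highest of any member above the floor. In the A-C set Uqcrq changed by 0.06 to 0.36. Uqcrc2, a core protein, had changes of 0.00 to 0.32, and Uqcrh, the hinge protein that contacts cytochrome c1, of -0.33 to 0.18.

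In complex IV, Cox4i1, the common form of the subunit that binds ATP as a regulator, had changes of -0.09 to 0.18 in the 11 comparisons. Cox4i2, its oxygen-sensitive isoform, was the member with the lowest mean change over the A-C set (-0.40). Its naive A-C signals were 7.83, 7.84 and 7.68. They were 6.85, 7.32 and 7.43 at IONT 12 h, 6.87, 7.43 and 7.15 at 48 h, and 7.00, 7.35 and 7.12 at 7 d. Every array of these IONT groups lay below naive. The changes of -0.58, -0.63 and -0.62 each had an SE of 0.29 and none was called (adjusted p 0.39 to 0.71). After IONC the arrays overlapped naive at 12 h, 24 h and 48 h and did not at 3 d and 7 d (-0.55 and -0.45). Against naive D and E, which read 5.40 and 5.15, its changes were 0.09, -0.43 and 0.68 at IONT 24 h, 3 d and 15 d, the last with arrays at 6.17 and 5.75, above both naive arrays (SE 0.36, adjusted p = 0.49). Cox6b1, a subunit at the contact between the monomers of the cytochrome oxidase dimer, read 10.92, 10.97 and 10.85 on naive A-C against 11.30, 11.33 and 11.36 at IONT 7 d and 11.28, 11.44 and 11.26 at IONC 24 h. These changes of 0.42 and 0.41 (SE 0.15) had adjusted p of 0.21 and 0.24.

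Complex V had positive changes in 15 of its 16 members at IONT 48 h, IONT 7 d and IONC 24 h, with medians of 0.17, 0.18 and 0.18. Of all genes with signal above the floor, 46.5%, 38.3% and 47.3% had positive changes there. In the other comparisons the count ran from 6 (IONC 12 h, with all arrays) to 14 of the 16, with 10, 9 and 8 at IONT 12 h, 24 h and 15 d. Atp5f1d, the delta subunit of the central stalk, read 10.19, 10.28 and 10.25 on naive A-C and lay above these in 23 of 24 injured arrays. Its changes in that set ran from 0.17 to 0.51, the highest at IONC 24 h (10.47, 10.77 and 11.01; SE 0.19, adjusted p = 0.29). Atp5f1e, the epsilon subunit of the same stalk, changed by 0.05 to 0.56 over all 11 comparisons and passed in none. Atp5f1b, the catalytic beta subunit and the brightest of the complex, changed by -0.30 to 0.13. Atp5if1, the inhibitor that blocks ATP hydrolysis and no subunit of the working enzyme, had changes of -0.48 (IONC 12 h, and -0.14 without the outlying array) to 0.02 and lay below all naive A-C arrays in 19 of 24 injured arrays.

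Of the listed alternative isoforms, most known from striated muscle or from hypoxia, all but Cox4i2 lay near the floor. Cox6a2, the heart and muscle form of subunit VIa, read 1.91 and 1.91 on naive D and E and 2.19 and 2.91 at IONT 3 d. The fit called this difference (0.64, SE 0.12, adjusted p = 0.00369), but both levels lie under the log2 value of 4 used as the floor. The call was lost when the arrays were median-centred (adjusted p = 0.0236), when the 2 array sets were fitted apart (adjusted p = 0.325), and when the array at 2.91 was left out (0.28, adjusted p = 0.0569). Leaving out naive D or E also ended it (adjusted p 0.0443 and 0.0231). Striated muscle markers were not raised on these arrays (mean log2 level 3.28 to 3.39 against 3.35 in naive D and E). Cox8b, the muscle form of subunit VIII, read 2.37, 2.38 and 2.37 on naive A-C but 4.01 and 5.59 on 2 of the IONC 12 h arrays, 3.44 on 1 IONT 12 h array and 4.69 on 1 IONT 48 h array. Muscle markers stood at 4.96 and 3.96 on those IONC 12 h arrays and at 4.68 on that IONT 12 h array, against 3.50 to 3.63 in naive A-C, and at no more than 3.58 at IONT 48 h. Their part in the Cox8b values was not tested. Cox6b2 (2.14 to 2.87), Cox7a1 (2.43 to 4.56) and Ndufa4l2 (2.96 to 4.01) gave no call.

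The number of calls depended on the IONC 12 h array that stood apart. For the members compared with naive A-C the median half-width of the 95% interval was 0.31 with it and 0.20 without it (0.23 at IONC 12 h). Without it, 14 of 869 values were called in 11 members (11 higher and 3 lower), where 4.57% of all values were. The share for the members stayed under that of all genes in both settings. Those called lower were the 3 Ndufs1 values given above. The genes called higher, named here after their values were seen, were Ndufa1 at IONT 48 h (0.44), Ndufb7 (0.58), Uqcrq (0.82), Cox6a2 (0.64) and Atp5f1e (0.56) at IONT 3 d, and Ndufa4 (0.48), Ndufc1 (0.34), Cox6b1 (0.42) and Atp5pd (0.31) at IONT 7 d. After IONC they were Cox6b1 at 24 h (0.41) and Atp5mpl at 48 h (0.33). Atp5pd, a subunit of the peripheral stalk, is an example of how tight these values were: it read 11.78, 11.79 and 11.73 on naive A-C and 12.05, 12.08 and 12.10 at IONT 7 d.

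IONC and IONT were not told apart by any member. At 12 h, 48 h and 7 d the lesions were compared directly, and none of the 79 members was called (background 1.62%, 0.148% and 0.0563%). At 24 h and 3 d, where the IONT arrays belong to the other set, the changes from naive were compared, again with no member called (0.12% and 0.0492%). Unadjusted p fell under 0.05 for 7, 2 and 1 members in the direct comparisons and for 4 and 3 in the others, where 38.6%, 6.30% and 3.64% and then 6.56% and 6.71% of all genes did. The median difference, IONC minus IONT, was -0.13 at 12 h (0.11 without the outlying array), 0.00 at 48 h and 0.00 at 7 d. The median difference of the changes was 0.13 at 24 h and -0.13 at 3 d. For Ndufs1 the differences at 48 h and 7 d were 0.10 and 0.06, with 95% intervals of -0.19 to 0.39 and -0.23 to 0.35. At 12 h it was -0.42 (-0.71 to -0.13, adjusted p = 0.084), and -0.15 (SE 0.09, adjusted p = 0.636) without the outlying array. The 95% interval lay within 1.5-fold for 55, 64 and 64 of the 72 members at 12 h, 48 h and 7 d, and for 26 at 24 h and 26 at 3 d, so small differences at 24 h and 3 d were not detectable with these arrays. Cox8b, at the floor in naive A-C (2.37 to 2.38), was called at 12 h (2.07) without the third IONC 12 h array. The IONC 12 h arrays left, among them the outlying one, are those with the raised Cox8b values and muscle markers given above. Floor-level Cox6a2 was called at 3 d (-0.95) without the first IONT 3 d array. Under cyclic loess Atp5pd was called at 12 h (0.41).

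The median difference between the naive arrays of the 2 sets was larger than that of any lesion group from its naive arrays. Between naive D and E and naive A-C, 13 members were called lower and none higher, where 3.01% of all genes were called lower. The median of the 72 members was -0.34, that of all genes -0.01. Cox4i2 differed by -2.50 (7.68 to 7.84 against 5.15 and 5.40), Uqcrq by -1.22, Ndufv3 by -1.15, Atp5f1d by -1.02, Atp5mg by -1.01 and Ndufb1 by -0.998. The others were Sdhb (-0.92), Cox6a1 (-0.91), Ndufa6 (-0.83), Ndufb8 (-0.82), Cox4i1 (-0.80), Ndufb10 (-0.74) and Uqcr11 (-0.60). Without the outlying IONC 12 h array 28 were lower and 1 higher, and without naive D 4 were called. The share of all genes between the naive sets was not counted in these settings. Over the 11 comparisons with naive, leaving out the outlying array raised the share of all values called from 1.56% to 4.57%. Both sets were uninjured retina, and the beta-actin ratio differed between the same arrays; its part in these values was not tested. Referring all groups to all 5 naive arrays would shift the members' medians to between 0.19 and 0.32 in 7 of the A-C groups and to between -0.17 and -0.06 in the 3 D,E groups.

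The genes around the chain were given by lists. None of the 21 other chain proteins and carriers, 16 enzymes of the tricarboxylic acid cycle and pyruvate dehydrogenase, or 12 genes of uncoupling and the hypoxia response was called in any of the 11 comparisons. Without the outlying array 2, 3 and 3 of them were, in 2 of 231, 4 of 176 and 6 of 132 values. Of all values, 4.57% were called in that setting. Over the 8 comparisons with naive A-C, the largest mean changes were those of the coenzyme Q genes Coq3 (-0.46) and Coq6 (-0.43), with Etfa at -0.19 and Coq10a at -0.18 (-0.11 and -0.08 without the outlying array). In the cycle they were Dld (-0.40) and Pdhx (-0.36), both of the pyruvate dehydrogenase complex, then Dlst (-0.28) and Suclg2 (0.17, and 0.25 without that array). In the last list Vegfa, the hypoxia-induced angiogenic factor, had -0.68, the uncoupling protein gene Ucp2 0.54, Slc25a14 -0.31 and Hif1a -0.16. Without the outlying array these were -0.55, 0.59, -0.23 and -0.12. Of 42 assembly factors, 3 were called lower once each: Foxred1 (complex I) at IONT 7 d (-0.89), Ttc19 (complex III) at IONC 12 h (-0.88) and Cox18 (complex IV) at IONC 48 h (-0.72). That is 3 of 462 values, against 1.56% of all values. In this order the calls were lost in 7, 6 and 9 of 45 alternative settings, with the sign kept. Without the outlying array Ttc19 stood at -0.46 and did not pass. In that setting 13 of the 462 values were called, in 8 assembly factors (4 higher and 4 lower), against 4.57% of all values. The largest mean changes among assembly factors were Bcs1l (-0.68), Foxred1 (-0.62), Cox10 (-0.58) and Atpaf1 (-0.52, and -0.34 without that array). Of 73 mitochondrial ribosomal proteins, 3 fell and 1 rose, each in 1 comparison: Mrpl1 at IONC 48 h (-0.70), Mrpl49 (-0.83) and Mrps22 (-0.84) at IONC 12 h, and Mrps9 at IONT 15 d (0.69). These were 4 of 803 values. The calls of Mrpl1, Mrpl49 and Mrps22 were lost in 5, 8 and 7 of 45 alternative settings, and that of Mrps9 in 9 of 43. Without the outlying array Mrpl49 stood at -0.45 and Mrps22 at -0.51, the second no longer passing. In that setting 37 of the 803 values were called, in 18 of these genes (7 higher and 11 lower), against 4.57% of all values. Their largest mean changes were Mrpl46 (-0.63), Mrpl50 (-0.50), Mrps18b (-0.49) and Mrpl1 (-0.47). Without the outlying array these means were -0.48, -0.41, -0.41 and -0.46. Over the 8 comparisons with naive A-C the median change of the assembly factors ran from -0.45 to -0.04 and that of the ribosomal proteins from -0.36 to 0.07, beside -0.07 to 0.17 for the subunits; these differences were not tested. Without the outlying array the 3 ranges were -0.24 to -0.04, -0.12 to 0.07 and 0.04 to 0.17.

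Regulators of mitochondrial biogenesis included genes that changed at several times. Of 15 measured, Ppargc1a and Polg2 fell and Ppargc1b rose, in 7 of 165 values, against 1.56% of all values. Ppargc1a encodes PGC-1alpha, the coactivator of respiratory gene transcription. Its log2 signal was 9.25 to 9.36 on naive A-C, 8.18 to 8.44 at IONT 48 h, 8.31 to 8.38 at IONT 7 d, 7.80 to 8.07 at IONC 12 h and 7.98 to 8.83 at IONC 48 h. None of these groups overlapped naive. The changes were -1.01, -0.95, -1.37 and -0.96 (SE 0.17, adjusted p 8.69e-06 to 0.00183), and all 4 passed without the outlying array; under cyclic loess they were -0.96, -0.86, -0.89 and -0.92 with adjusted p of 0.0107 to 0.0367. At IONT 15 d it read 9.14 to 9.18, against 9.14 to 9.23 in naive D and E. In the same groups the 72 members had medians of 0.11, 0.14, -0.07 and 0.09. Polg2, the accessory subunit of the mitochondrial DNA polymerase, fell at IONT 48 h (-1.80) and IONC 12 h (-1.92, and -1.49 without the outlying array). Ppargc1b, a relative of Ppargc1a, rose at IONT 15 d (1.23, 2 arrays against 2). Its call was lost in 4 of 43 alternative settings. The Ppargc1a calls, in the order above, were lost in 1, 4, 1 and 4 of 45, and both Polg2 calls were kept in all 45. By mean change over the A-C set Polg2 (-0.82) and Ppargc1a (-0.72) were followed by Tfb2m (-0.62), a mitochondrial transcription factor, and Nrf1 (-0.55), the factor whose core motif was searched above, neither of which was called with all arrays. Without the outlying array the means were -0.77 (Polg2), -0.71 (Ppargc1a), -0.46 (Tfb2m) and -0.44 (Nrf1). In that setting 10 of the 165 values were called, in 4 regulators (1 higher and 3 lower), against 4.57% of all values. Among them was Tfb2m, lower at IONT 7 d (-0.67), IONC 24 h (-0.70) and IONC 48 h (-0.63).

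Markers of several retinal cell types changed. Of 10 ganglion cell markers 9 fell, and their mean log2 level went from 9.08 to 9.14 in naive A-C to 5.89 to 6.01 at IONT 7 d and 6.29 to 6.75 at IONC 7 d. At IONT 15 d it was 4.88 to 5.07, against 8.99 and slightly more in naive D and E, while the members' median change was 0.02. Of 8 rod markers 6 fell, with a mean level of 12.94 to 12.97 in naive A-C, 12.15 to 12.27 at IONT 12 h, 11.94 to 12.17 at IONT 48 h and 11.69 to 11.93 at IONC 12 h. By 7 d it was 12.79 to 12.96 after IONT and 12.48 to 12.88 after IONC. Of 8 microglia and macrophage markers 2 rose (4 without the outlying array), and the mean level of all 8 was above naive in every injured group. Among the other lists 3 of 7 cone, 1 of 8 bipolar and amacrine, and 4 of 8 lens markers fell. Of 7 Muller glia and astrocyte markers 1 rose and 2 fell. In muscle 1 of 10 markers rose (none without the outlying array), and none of 7 pigment epithelium markers was called. Without that array 3 bipolar and amacrine markers fell and 3 Muller glia and astrocyte markers rose. By value, the calls were 48 of 110 (ganglion cell), 21 of 88 (rod), 12 of 88 (microglia and macrophage), 6 of 77 (cone) and 3 of 88 (bipolar and amacrine). They were 12 of 77 (Muller glia and astrocyte), 5 of 88 (lens) and 1 of 110 (muscle), against 1.56% of all values. Without the outlying array the same lists had 52, 26, 27, 11, 8, 19, 5 and 0 calls, against 4.57% of all values. What part these markers have in the members' values was not tested.

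**Figure D4:**
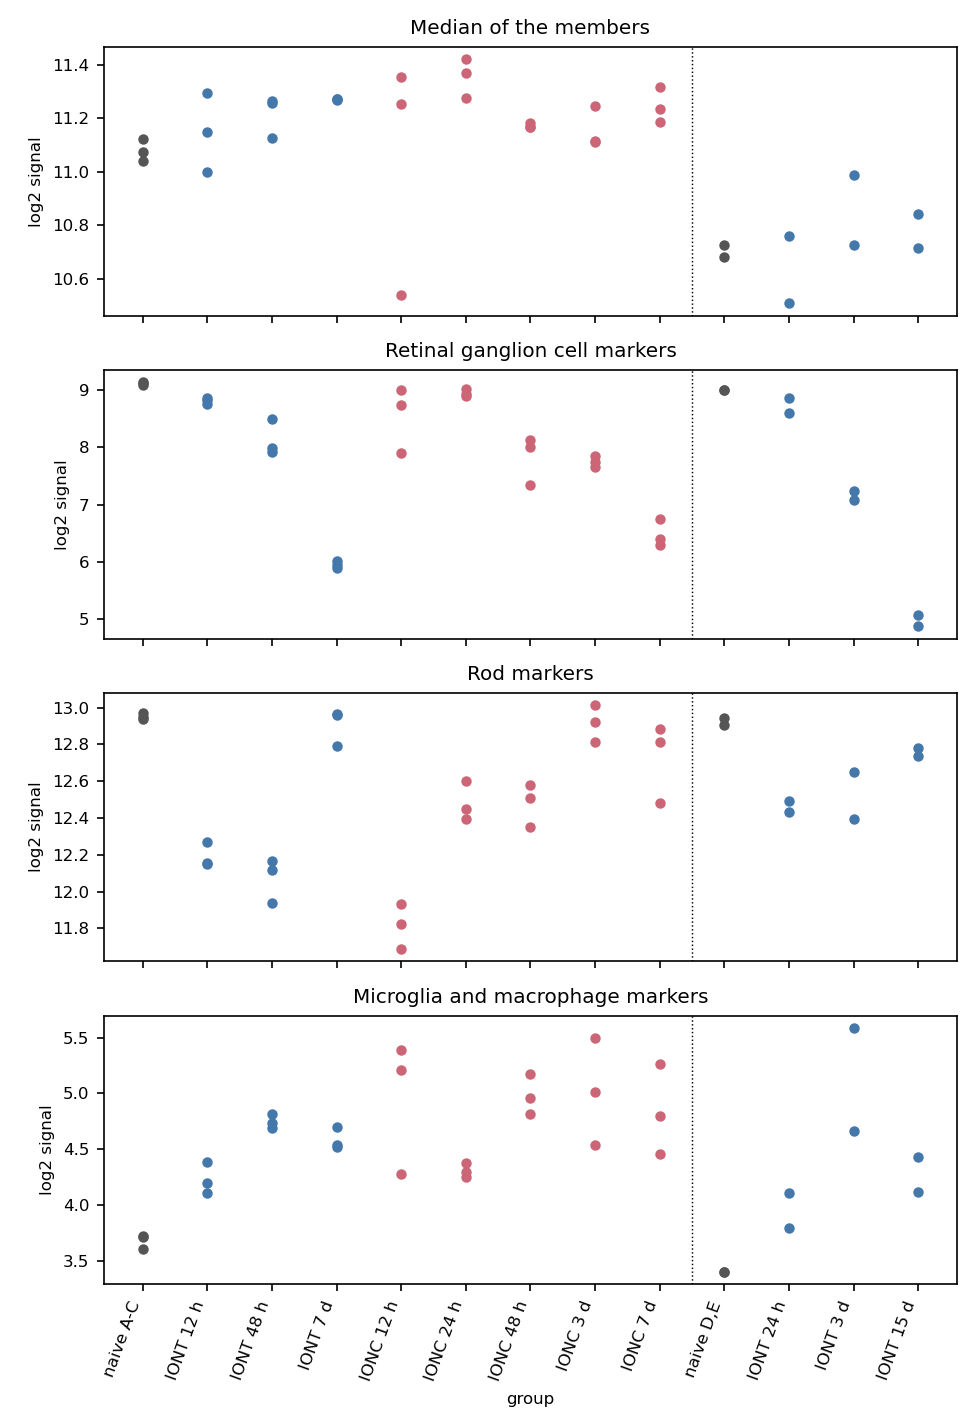
Log2 signal on each array (points; vertical axes differ) of the median of the 72 members and of the mean of the ganglion cell, rod, and microglia and macrophage markers, with naive arrays in grey, IONT in blue and IONC in red and the array sets separated by the dotted line. The members stay within 10.51 to 11.42 while the ganglion cell markers descend from 9.14 to 4.88.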

How the data were processed

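The authors hybridised each RNA pool to an Affymetrix rat array and deposited log2 signals after GCRMA background correction and normalisation (tools named in the submitters' processing notes: GCRMA and limma, versions not given). The table of 31099 rows held 57 control probe sets, which were left out. Of the 31042 tested, 20826 carried 1 gene symbol in GEO's platform annotation, 436 several and 9780 none. Entries with several symbols were not members. Members and lists were chosen with earlier results of these data known. GCRMA had already pulled dim probe sets to a floor, so changes near a log2 value of 4 or less are compressed.

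A linear model with 1 mean per group (the 2 naive sets apart) was fitted over all 35 arrays and probe sets with limma 3.58.1 in R 4.3.3, with moderated statistics (23.6 degrees of freedom) and Benjamini-Hochberg adjustment over all probe sets. Calls needed adjusted p under 0.01, B above 0 and 1.2-fold. The script was tested on simulated data. Intervals are 95%. Named genes were those called, the 2 largest mean changes and the brightest member of each complex. The listed alternative isoforms, most of muscle or hypoxia, were also named. For each other list, those called and the 4 with the largest mean change were named. The number of arrays limits precision.

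The median correlation of deviations was 0.025 for same-numbered arrays and -0.0092 for differently numbered ones, and the arrays were treated as unpaired. Alternatives were another naive reference, thresholds, centring, cyclic loess, a filter, separate fits, a replicate block, mean probe sets and leaving out each array.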

Additional observations from a re-analysis of the deposited data

Results flagged for a closer look

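Among the 5 naive arrays, Cox7a1, the muscle form of a cytochrome oxidase subunit, had 1 array far from the others: naive E read 3.38 where the other 4 read 2.58 to 2.71, and the gap took 0.839 of the whole range. Of 25 named members, this was the only one flagged in this way, and chance flags about 1 in 20 such groups. Both levels lie under the log2 value of 4 used as the floor. No member was called between IONC and IONT.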

How the results depend on the processing

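With all 5 naive arrays as the reference, 1 member was called at IONT 15 d and 2 at IONC 12 h. The median changes then became 0.21, -0.17, 0.25, -0.064, 0.30 and -0.16 after IONT from 12 h to 15 d and 0.32, 0.23, 0.19 and 0.27 after IONC from 24 h to 7 d. Ndufs1 at IONT 15 d, never called, turned to 0.042 there, 0.056 without naive D and 0.10 without the first IONT 15 d array. The array set as a term is the reported fit written in another form, so its values had to be the same. An adjusted p under 0.05 alone called 3 members at IONC 12 h and 27 between the naive sets. Median centring called 0 at IONT 3 d, 1 at IONT 15 d and 2 at IONC 12 h, with medians of 0.0091 at IONT 3 d and -0.20 at IONT 15 d. Cyclic loess called 2 at IONT 48 h, 2 at IONT 7 d, 3 at IONC 12 h and 1 between the lesions at 12 h, with a median of 0.17 at IONT 7 d. The filter on dim probe sets called 0 at IONT 3 d, as did separate fits of the sets. With separate fits and IONC 12 h replicate 2 left out, chosen after seeing the data, 2 were called at IONT 48 h, 4 at IONT 7 d, 3 at IONC 24 h and 2 at IONC 48 h. The share of all genes called was not counted under these alternatives, and the causes were not tested.

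Leaving out 1 array at a time gave 0 to 2 calls at IONT 48 h, 0 to 4 at IONT 3 d, 0 to 4 at IONT 7 d, 0 to 1 at IONT 15 d, 0 to 3 at IONC 12 h, 0 to 1 at IONC 24 h, 0 to 2 at IONC 48 h, 0 to 1 between lesions at 12 h and at 3 d, and 4 to 29 between the naive sets. The IONC 12 h median ran from -0.22 to 0.17. The medians at IONT 12 h (-0.0043 to 0.082), 24 h (-0.063 to 0.13) and 15 d (-0.021 to 0.11) also changed sign, and the other 7 stayed positive.

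The replicate block, fitted among the A-C arrays, called 1 member at IONC 12 h and 0 in its other comparisons, as without it. Same-numbered arrays had correlations of deviations of -0.39 to 0.34 (median 0.025), and differently numbered ones of -0.40 to 0.41 (median -0.0092). Above 0.1 lay 28 of 108 same-numbered and 32 of 216 differently numbered pairs. The arrays were treated as unpaired, and whether a weak pairing exists was not tested. A paired fit of the D,E groups was not possible because they share no numbers with naive D and E. Array weights did not converge and were not run. The number of arrays, 2 or 3 per injured group, limits what small changes can be detected.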

Other observations

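Probe sets that carried several symbols were outside the rule and gave a second view of some subunits. Cox5a, the subunit Va of cytochrome oxidase, was represented by a dim probe set (mean log2 signal 4.96) whose changes ran from -0.52 to 0.50, while a brighter one shared with another locus (mean 11.24) ran from -0.15 to 0.20. The probe set shared by Atp5mc2 and a related locus, for a form of the c ring of ATP synthase, changed by 0.12 to 0.87, and that shared by Uqcrb and a related locus, for a complex III subunit, by -0.42 to 0.16. For Sdhd the dimmer probe set (mean 8.36) ran from -1.08 to 0.35 and the brighter one (10.49) from -0.19 to 0.13. Both Sdhd minima, and those of the Uqcrb and brighter Cox5a probe sets, were at IONC 12 h with the outlying array included. No values without that array are given for these probe sets. In the other comparisons the dimmer Sdhd probe set ran from -0.19 to 0.35. The probe sets of 1 gene thus did not always give the same change, and the difference was not tested.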
